A study of Mus musculus and Homo sapiens with 18 samples.

Results

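Of the 2948 peaks listed for the guide Phc1-sg1, 742 lay within 20 kb of a peak of an unrelated guide, Nanog-sg3, and these near peaks are described here. They were chosen by position alone: the gap between the edges of a Phc1-sg1 peak and of the nearest Nanog-sg3 peak on the same chromosome had to be 20 kb or less, in either of the 2 Nanog-sg3 libraries made at 20 ug in stable cells, overlaps included. The other 2206 Phc1-sg1 peaks are called far peaks. Since both sets were cut from 1 list by that distance, the number of near peaks, their gaps and their Phc1-sg1 scores are descriptions.

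Cas9 is a bacterial nuclease that a single guide RNA (sgRNA) leads to DNA. It first recognises a short protospacer-adjacent motif and then opens the neighbouring DNA to pair it with the guide, beginning at the guide's end next to that motif, its seed. A catalytically inactive Cas9 (dCas9) keeps this binding without cutting, and brief pairing over the seed can hold it at many places other than the intended one. Accessible chromatin is known to favour such binding. Guides with different seeds are therefore usually held at different letters of the genome, and it can be asked from peak lists whether their sites fall in the same neighbourhoods.

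The binding of HA-tagged dCas9 was measured by chromatin immunoprecipitation with an anti-HA antibody and sequencing in V6.5 cells, a mouse embryonic stem cell line of strain C57BL/6-129. In the Phc1-sg1, Phc1-sg2, Nanog-sg2 and dosed Nanog-sg3 libraries the cells carried a stably integrated dCas9 gene, whose promoter and clonal origin the labels do not give, and received 1 sgRNA by lipid transfection. Phc1-sg1 and Phc1-sg2 were given at 20 ug, Nanog-sg2 at 10, 20 and 40 ug, and Nanog-sg3 at 0.02, 0.2, 2 and 20 ug. The transient library came from wild-type V6.5 cells given 20 ug of Nanog-sg3 and 20 ug of dCas9, and its input had no antibody. Phc1 encodes a Polycomb subunit and Nanog a homeobox factor of pluripotent cells. All groups but the stable Nanog-sg3 20 ug group, with 2 libraries, had 1 library, so no comparison of guides or doses could be tested against replicates. Whether those 2 libraries came from separate cultures is not stated. Peaks are not replicates of a condition, and the exact Clopper-Pearson 95% intervals given with shares cover counting error only.

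The lists used as neighbours held 5957 and 5862 peaks for the first and second Nanog-sg3 20 ug library, 16119 for the transient library, 2698, 166 and 122 for Nanog-sg3 at 2, 0.2 and 0.02 ug, 663 for Phc1-sg2, and 20 to 26 for Nanog-sg2. Depth is unknown, since no list gives reads. The lists hold fewer peaks than the numbers in their peak names, by a rule not given in the sources used here, so a missing peak is not a lack of binding. Each peak has a score from the authors, which describes or ranks peaks within 1 list. Scores of several lists are printed side by side for a place, and no order or change is read between lists. No sequence or gene is printed for these positions, because no mm9 genome or annotation was used here. None of the 16 lists of the series belonged to the mouse sample without sgRNA or to the input for Phc1-sg1, so peaks of these samples were not analysed here.

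Part of the Phc1-sg1 list lay in Nanog-sg3 neighbourhoods, and the share that did so differed from list to list. The near peaks made up 25.2% of Phc1-sg1 peaks (742 of 2948, 23.6 to 26.8%). Of Phc1-sg2 peaks, 18.1% were as near (120 of 663, 15.2 to 21.2%), and of the few Nanog-sg2 peaks 6 of 20, 6 of 26 and 7 of 26 at 10, 20 and 40 ug. Stretches within 20 kb of a Nanog-sg3 peak covered 11.2% of the length spanned by the mouse lists (285.9 of 2561.5 Mb). The shares of both Phc1 lists thus lay above the share of length. Peaks of a list are not spread evenly, and this was not modelled. Other libraries of Nanog-sg3 itself had 80.6% (2 ug), 76.5% (0.2 ug), 47.5% (0.02 ug) and 54.7% (transient) of their peaks within 20 kb of the same 20 ug peaks.

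Gaps between the guides had no break at 20 kb. The median gap was 8.96 kb among the near peaks and 52.7 kb over all Phc1-sg1 peaks. Within 1, 5, 10, 20, 50 and 100 kb of a Nanog-sg3 peak lay 63, 223, 404, 742, 1447 and 2013 of the 2948 peaks. The first 2 kb of the gap held 104 Phc1-sg1 peaks, and the bin from 8 to 10 kb held 65. Beyond it the counts went up and down, with 82 from 12 to 14 kb, 54 from 18 to 20 kb and 71 from 20 to 22 kb. The limit therefore cuts through an uneven decline. Just inside it were peaks on chromosome 15 between 76763967 and 76765121 (gap 19968 bp, score 202.09), on chromosome 9 between 21960544 and 21961854 (19949 bp, 141.46) and on chromosome 19 between 10630038 and 10631454 (19915 bp, 121.39). Just outside were peaks on chromosome 1 between 60485660 and 60486369 (20016 bp, 69.01), on chromosome 2 between 168077879 and 168078909 (20021 bp, 188.27) and on chromosome 8 between 63347738 and 63348644 (20050 bp, 106.43).

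**Figure D1:**
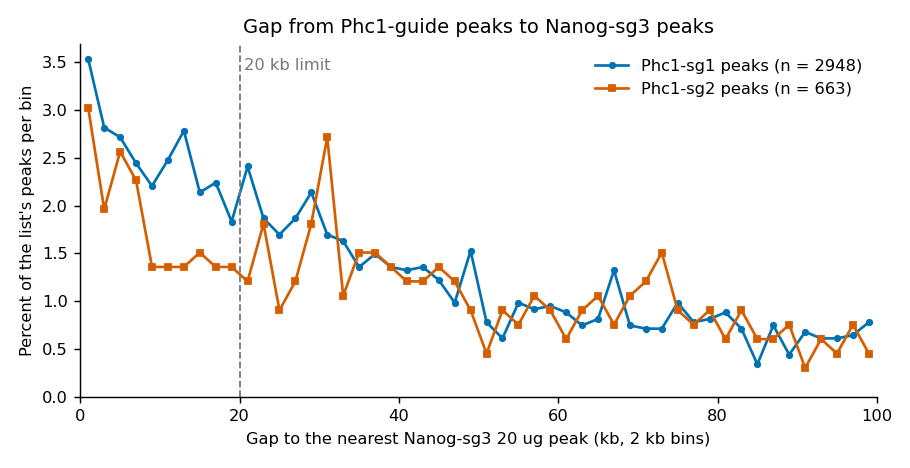
Percent of each Phc1 guide's peaks (vertical axis) by gap to the nearest Nanog-sg3 20 ug peak in 2 kb bins (horizontal axis, kb); circles are Phc1-sg1 (2948 peaks) and squares Phc1-sg2 (663 peaks). Phc1-sg1 falls unevenly from 3.53% in the first bin with no break at the dashed 20 kb limit, and Phc1-sg2 starts at 3.02%.

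Most near peaks had 1 Nanog-sg3 neighbour. After the overlapping peaks of the 2 Nanog-sg3 libraries were merged into 8154 sites, 603 of the 742 near peaks had 1 site within 20 kb, 113 had 2 and 26 had 3 or more, the most being 4. Seen from the other guide, 10.4% of the sites (850 of 8154, 9.77 to 11.1%) had a Phc1-sg1 peak within 20 kb. For Nanog-sg3 peaks found in both libraries this share was 10.2% (747 of 7299, 9.55 to 11%), and for those found in 1 library 10.5% (475 of 4520, 9.63 to 11.4%), with overlapping intervals. Of the near peaks, 369 had a neighbour in both libraries, 168 in the first only and 205 in the second only.

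Shared positions in the strict sense were rare. Only 16 of the 742 near peaks overlapped a Nanog-sg3 20 ug peak by at least 1 bp, 0.543% of all Phc1-sg1 peaks, and the other 726 lay beside one. The overlaps ran from 9 to 1540 bp with a median of 161 bp, and 10 of the 16 were shorter than 200 bp. Both Nanog-sg3 libraries were overlapped at 4 of these places, the second alone at 10 and the first alone at 2; without the second library the count was 6. In score, 13 of the 16 were below the median of all Phc1-sg1 peaks, with a lowest score of 55.29, a median of 84.36 and a highest of 181.28. With centres required to lie within 200 bp none remained, and with 50% of both peaks shared 2 did.

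Counted by centres, close pairs stopped short of coinciding. Between the centres of Phc1-sg1 peaks and Nanog-sg3 sites, 1 pair lay within 0.5 kb and 23 between 0.5 and 1 kb. In each of the 18 further bins of 0.5 kb out to 10 kb there were 14 to 31 pairs. The transient library, which was not used to choose the near peaks, gave 3 pairs within 0.5 kb, 31 between 0.5 and 1 kb, and 29 to 53 in each further bin. The first bin was thus the emptiest with both the stable and the transient lists, and the bins beyond it had no steady trend. Whether the authors removed peaks that coincide between guides is not stated.

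**Figure D2:**
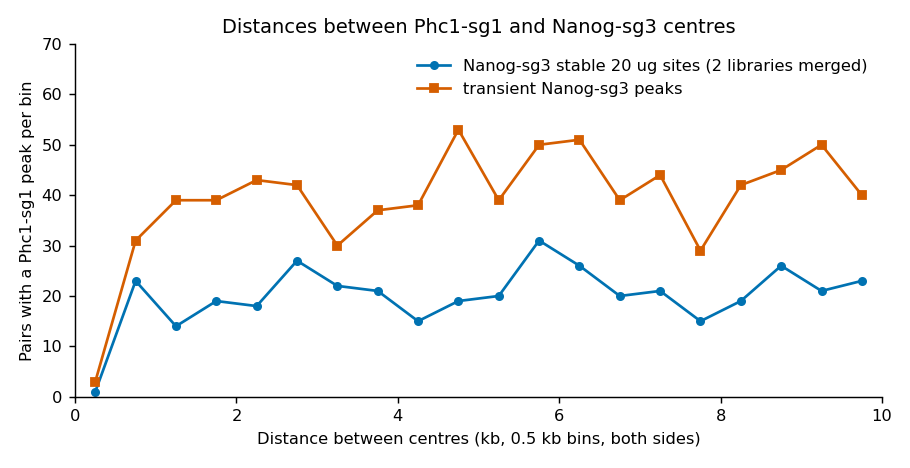
Number of pairs of a Phc1-sg1 peak and a Nanog-sg3 site or peak (vertical axis) by the distance between their centres in 0.5 kb bins, both sides counted (horizontal axis, kb); circles are the merged stable 20 ug sites and squares the transient peaks. The first bin holds 1 and 3 pairs, and every later bin at least 14 and 29.

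The overlaps differed in how many Nanog-sg3 libraries they touched. On chromosome 8 between 73373580 and 73374618, a Phc1-sg1 peak of score 87.99 shared 465 bp with a peak of the first Nanog-sg3 library (60.19), 415 bp with one of the second (67.57) and 136 bp with one of the transient library (188.85). This was the longest overlap seen in both stable libraries. The longest of all was on chromosome 15 between 76489712 and 76491251, where the whole Phc1-sg1 peak (score 96.79) lay inside a peak of the second library (74.13); the nearest transient and 2 ug peaks, with scores of 261.58 and 455.43, lay 135 and 264 bp from it. The next in length were also with the second library.
They were 917 bp on chromosome 19 between 47211337 and 47213126 (Phc1-sg1 score 93.13, Nanog-sg3 score 139.94) and 728 bp on chromosome 11 between 117707934 and 117709174 (61.23 and 61.44), where the transient list also had an overlapping peak (65.08).

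The remaining overlaps touched the edges of the peaks. The 3 others seen in both stable libraries were on chromosome 1 between 94996661 and 94999058 (score 65.16, overlaps of 100 and 14 bp), on chromosome 17 between 47332199 and 47334397 (55.29, 147 and 153 bp) and on chromosome 4 between 135577212 and 135578085 (79.14, 209 and 47 bp). Each of these had a transient peak 257 to 270 bp away rather than at the same place. On chromosome 15 between 8394590 and 8396046 (score 85.71) the overlap was 136 bp with the second library (285.47), 150 bp with the transient library (414.38) and 17 bp with the 2 ug library (133.63), the one place of the 16 that was overlapped in 3 Nanog-sg3 lists of different dose or delivery.

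Overlaps with a single stable library were mostly short. With the first library they were 169 bp on chromosome 12 between 85394337 and 85395731 and 172 bp on chromosome 13 between 114668947 and 114670041. With the second they were 39 bp on chromosome 16 between 31509861 and 31510976, which had the highest Phc1-sg1 score of the 16 (181.28), 95 bp on chromosome 19 between 32559756 and 32560848, 125 bp on chromosome 2 between 28557845 and 28558674, 43 bp on chromosome 11 between 20759881 and 20760302 and 9 bp on chromosome 15 between 97738369 and 97739283. The position on chromosome 2 also overlapped a transient peak (101.91), and the one at 32559756 on chromosome 19 a 2 ug peak (64.64). Over the 16, 4 overlapped a transient and 2 a 2 ug peak. Of all 742 near peaks 8 overlapped a transient peak (1.08%), beside 0.509% over all Phc1-sg1 peaks, and 2 a 2 ug peak, beside 0.102%. Of the 16 overlaps, 1 is not described here.

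Near peaks were fewer among the 100 strongest Phc1-sg1 peaks, while the bulk of the scores was alike. Near peaks had a median score of 100.76 (quartiles 72.28 and 148.92) and far peaks 100.70 (72.76 and 152.98). Ordered by score and cut into 4 sets of 737 peaks, the Phc1-sg1 list had a near share of 24.6% in the highest set, then 25.8, 24.8 and 25.5%. Only the extreme top departed from this. None of the 10 strongest Phc1-sg1 peaks was near (0 to 30.8%), an interval that includes the 25.2% of all. Of the 50 strongest 6 were near (12%, 4.53 to 24.3%), and of the 100 strongest 13 (13%, 7.11 to 21.2%). Of the strongest 500 it was 23.6%. The score is a column of the list that chose the peaks, so these shares carry no test.

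The strongest peak of the list, which the strongest Phc1-sg2 peak overlapped, is no near peak. At this place, on chromosome 6 between 122290175 and 122292163 (score 1463.16), the nearest Nanog-sg3 20 ug peak was 44.35 kb away (69.82, first library, below that list's median of 108.91). A transient Nanog-sg3 peak (80.82) lay 2.597 kb from it.

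The 5 strongest near peaks had neighbours in 2 to 4 of the Nanog-sg3 lists. The first was on chromosome 13 between 12019557 and 12020591, with a Phc1-sg1 score of 682.21 (rank 14), and it had a Nanog-sg3 peak 6012 to 6478 bp away in each 20 ug library (230.66 and 296.46), the transient library (244.63) and the 2 ug library (151.52). The second, on chromosome 8 between 72372533 and 72374243 (659.19, rank 16), had one 4604 bp away in the second library only (136.48) and a different transient peak 15483 bp away (73.09). The first thus had a listed peak within 20 kb in every Nanog-sg3 library from 2 ug upward. For the second, the first 20 ug library and the 2 ug library listed none within 20 kb.

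The others of the 5 were again of both kinds. On chromosome 3 between 79390307 and 79391510 (533.35, rank 30) both 20 ug libraries (181.35 and 219.00) and the transient one (220.54) had a peak within 9.82 kb, and the 2 ug list had none within 20 kb. On chromosome 6 between 48387658 and 48389338 (484.85, rank 42) the neighbours scored 220.74 and 169.94 at 20 ug, 204.17 in the transient list and 76.06 at 2 ug, at gaps of 3806 to 4568 bp. On chromosome 12 between 105905345 and 105906402 (461.56, rank 47) the first 20 ug library (86.75) and the transient one (87.71) had a neighbour at 10.7 kb. No Phc1-sg2 peak lay within 20 kb of any of these 5.

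Scores of neighbouring peaks of the guides hardly went together. Over the 537 near peaks with a neighbour in the first Nanog-sg3 library, Pearson's r of the log scores was 0.06 and Spearman's rho 0.08; over the 574 with one in the second library they were 0.09 and 0.10. These are descriptions across peaks, each set within 1 pair of libraries, and some near peaks share a neighbour. The Nanog-sg3 peaks within 20 kb of a Phc1-sg1 peak had a median score of 116.84 in the first library (589 peaks, median interval 110.04 to 125.80) against 108.00 for the others (105.99 to 110.17), and 142.35 in the second (633 peaks, 134.85 to 154.62) against 133.44 (130.90 to 136.11). Both pairs of intervals overlap at their edges, and among the 100 strongest Nanog-sg3 peaks 9 and 8 had a Phc1-sg1 peak within 20 kb.

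**Figure D3:**
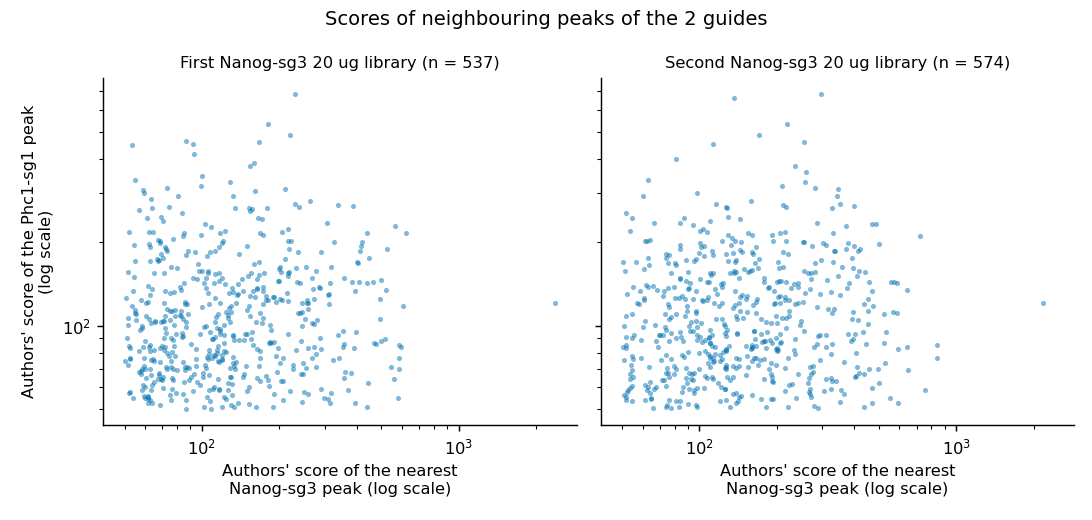
Authors' score of each near Phc1-sg1 peak (vertical axis, log scale) against that of its nearest Nanog-sg3 20 ug peak (horizontal axis, log scale), 1 point a near peak, for the first library (left, 537 points) and the second (right, 574 points). The clouds show little slope, with Spearman's rho of 0.08 and 0.10; the lone points at the right are 1 Phc1-sg1 peak of score 120.78 beside the strongest Nanog-sg3 peak.

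Near peaks were wider than far peaks. Their median width was 945 bp (interval of the median 924 to 977) against 862 bp (845 to 882), and the near share went from 31.2% of the widest 737 Phc1-sg1 peaks (27.9 to 34.7%) through 27.1 and 21.4% to 20.9% of the narrowest 737 (18 to 24%). Width enters a gap between edges, but with centres within 20 kb as the limit the medians were 941 and 863 bp. Along the gap the median width was 1178.5 bp at the 16 overlaps and 922 bp at gaps over 0 to 1 kb. It was 983 bp over 1 to 5 kb, 937 bp over 5 to 10 kb and 928.5 bp over 10 to 20 kb. Over 20 to 50 kb it was 920 bp, over 50 to 100 kb 906 bp and beyond 100 kb 805 bp. The order was not steady in the nearest bands. The narrowest were thus the peaks farthest from any Nanog-sg3 site. The Nanog-sg3 peaks of these neighbourhoods were also wider than the others of their lists, with medians of 947 against 850 bp in the first library and 1013 against 939 bp in the second.

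For Phc1-sg2, the other guide named for Phc1, near and far peaks had like shares. Phc1-sg2 peaks lay within 20 kb of 16 of the 742 near peaks (2.16%, 1.24 to 3.48%) and of 48 of the 2206 far peaks (2.18%, 1.61 to 2.87%), and 2.17% of all Phc1-sg1 peaks had one. With 5 kb as the limit for both guides, they were 1.79% of 223 near peaks (0.491 to 4.53%) and 0.514% of the others (0.281 to 0.861%), the widest contrast among the limits above 1 kb, with overlapping intervals. Within 100 kb the shares were 9.43% (7.43 to 11.8%) and 9.02% (7.86 to 10.3%), beside 9.12% over all. Within 500 kb they were 36.5% (33.1 to 40.1%) and 31.3% (29.3 to 33.3%), beside 32.6% over all, with intervals that just overlap. A difference within 20 kb was therefore not detectable with 663 Phc1-sg2 peaks. The intervals allow shares of up to 3.48% among near peaks.

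The places where all 3 guides met can be listed. At 1 of the 16 near peaks with a Phc1-sg2 peak within 20 kb, the Phc1 guides' peaks overlapped, by 49 bp. A Phc1-sg2 peak was thus overlapped by 1 of 742 near peaks (0.135%, 0.0034 to 0.749%) and by 1 of 2206 far peaks (0.0453%). Over all Phc1-sg1 peaks the share was 0.0678%. The near one was on chromosome 6 between 65028061 and 65028886 (Phc1-sg1 95.37, Phc1-sg2 166.10), with a peak of the first Nanog-sg3 library (117.94) 3473 bp away. On chromosome 9 between 63967550 and 63968369 the Phc1-sg2 peak (58.29) was 124 bp from the Phc1-sg1 peak (62.36), and Nanog-sg3 peaks of both 20 ug libraries (442.21 and 498.63), the transient (131.64) and the 2 ug library (256.92) lay 1519 to 1937 bp from it. The Phc1-sg1 scores of both places were below the median of that list. On chromosome 1 between 34906230 and 34907056 the Phc1-sg1 peak (142.26) had a Phc1-sg2 peak (129.21) at 2415 bp and a Nanog-sg3 peak of the second library (92.16) at 968 bp.

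Other such places were looser. Phc1-sg2 peaks lay at 4050 bp on chromosome 5 between 130483130 and 130484005 (Phc1-sg1 102.66, Phc1-sg2 179.44), at 4618 bp on chromosome 10 between 93220563 and 93221122 (134.70 and 105.94) and at 6052 bp on chromosome 15 between 38245078 and 38246034 (62.57 and 107.34). They lay at 8523 bp on chromosome 15 between 55116868 and 55117460 (169.55 and 114.82), at 10089 bp on chromosome 16 between 94458750 and 94459839 (120.68 and 77.87) and at 10713 bp on chromosome 2 between 90799296 and 90800036 (92.18 and 185.04). Of these 6 Phc1-sg1 peaks, the one of 169.55 ranked 593 of 2948. The tenth by distance stood beside the strongest Nanog-sg3 site: on chromosome 11 between 119067802 and 119068712 a Phc1-sg1 peak of score 120.78 lay 11291 and 11351 bp from the top peaks of the 20 ug libraries (2376.58 and 2173.77), with the top transient peak (2147.38) at 11579 bp, a 2 ug peak (300.15) at 11690 bp and a Phc1-sg2 peak (244.50) at 12436 bp. Of the 16, 14 had a transient and 6 a 2 ug Nanog-sg3 peak within 20 kb, beside 85.3 and 34.6% of all near peaks. The Phc1-sg1 scores of the 16 ran from 62.36 to 241.76 with a median of 99.66.

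The neighbourhoods recurred in Nanog-sg3 libraries that had not been used to find them. Transient peaks lay within 20 kb of 633 of the 742 near peaks (85.3%, 82.6 to 87.8%) against 575 of the 2206 far peaks (26.1%, 24.2 to 28%), beside 41.0% over all Phc1-sg1 peaks. At 2 ug the shares were 34.6% (257 of 742, 31.2 to 38.2%) and 4.08% (90 of 2206, 3.29 to 4.99%), beside 11.8%. At 0.2 ug they were 2.02% (15 of 742, 1.14 to 3.31%) and 0.227% (5 of 2206, 0.0736 to 0.528%), beside 0.678%, and at 0.02 ug 0.943% (7 of 742, 0.38 to 1.93%) and 0.408% (9 of 2206, 0.187 to 0.773%), beside 0.543%. Only the lowest dose had overlapping intervals. These lists hold the same guide as the lists of the rule, so they are no independent measure. Far peaks by definition lack a stable 20 ug peak within 20 kb, so the rule itself favours higher shares for near peaks.

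Transient peaks that overlapped no stable 20 ug peak (10021 of 16119) leave those sites out. They lay within 20 kb of 31.8% of near peaks (236 of 742, 28.5 to 35.3%) and 26.1% of far peaks (24.2 to 28%), beside 27.5% over all, and the intervals do not meet. By gap to the nearest stable site, the share was 25% at overlaps (4 of 16, 7.27 to 52.4%), 23.4% at over 0 to 1 kb (11 of 47, 12.3 to 38%), 35.6% at over 1 to 5 kb (28.2 to 43.6%), 34.3% at over 5 to 10 kb, 30.2% at over 10 to 20 kb, 32.3% at over 20 to 50 kb, 27.2% at over 50 to 100 kb and 20.6% beyond 100 kb (18.1 to 23.4%). The bands were thus not in a steady order, with low and uncertain shares in the 2 nearest, the highest share at 1 to 5 kb and the lowest beyond 100 kb. The near peaks' share of 31.8% lies within the interval of the far peaks at over 20 to 50 kb (28.9 to 35.9%). For 2 ug peaks that overlapped no stable 20 ug peak (802 of 2698) the shares were 5.39% (40 of 742, 3.88 to 7.27%) and 4.08% (3.29 to 4.99%), beside 4.41%, with overlapping intervals.

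**Figure D4:**
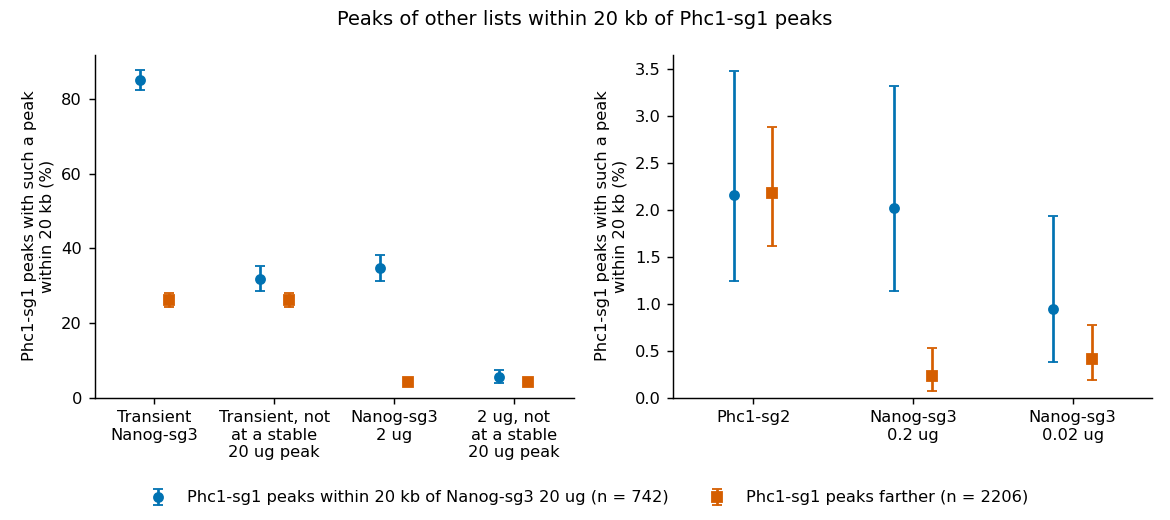
Percent of Phc1-sg1 peaks with a peak of another list within 20 kb (vertical axes, different scales; exact 95% intervals) for the 742 near peaks (circles) and the 2206 far peaks (squares). The near peaks stand apart for the transient (85.3%) and 2 ug (34.6%) lists, little for transient peaks away from stable sites (31.8 against 26.1%), and not for Phc1-sg2 (2.16 against 2.18%). The transient and 2 ug lists hold the guide of the rule, which itself favours this direction.

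Recurrence was more frequent in neighbourhoods found in both 20 ug libraries, most clearly at 2 ug. Of the 369 near peaks with neighbours in both, 94.6% had a transient peak within 20 kb (349, 91.8 to 96.7%) and 52.8% a 2 ug peak (195, 47.6 to 58%). With the first library alone these shares were 73.2% (65.8 to 79.7%) and 7.74% (4.18 to 12.9%), and with the second alone 78.5% (72.3 to 84%) and 23.9% (18.2 to 30.3%). The sets with 1 library thus differed at 2 ug. The second 20 ug list and the 2 ug list have a column that the first lacks, and whether they were prepared differently was not tested. For Phc1-sg2 the 3 sets had 9 of 369, 4 of 168 and 3 of 205, and their median Phc1-sg1 scores were 103.47, 100.39 and 96.25.

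At most 5 of the 10 other lists of guide immunoprecipitates had a peak within 20 kb of any near peak. Of the 742 near peaks 20 reached 5, beside 20 of all 2948 Phc1-sg1 peaks and 0 of the 2206 far peaks. The most for a far peak was 4, reached by 1 of them. Both 20 ug lists of the rule are among the 10, so a near peak had at least 1 and a far peak neither. The rule itself thus favours higher counts for near peaks. All 20 had both 20 ug libraries and the transient library; 19 had the 2 ug library, 12 the 0.2 ug library, 2 the 0.02 ug library, 5 Phc1-sg2 and 1 each Nanog-sg2 at 10 and at 40 ug. The one of highest Phc1-sg1 score (241.76), on chromosome 2 between 165848735 and 165850465, had Nanog-sg3 peaks of 170.78 and 143.51 at 20 ug, others of 55.64 in the transient list and 223.55 at 2 ug at separate places, and a Phc1-sg2 peak of 516.49 at 13414 bp. That is the highest Phc1-sg2 score beside a near peak named here. On chromosome 1 between 145578757 and 145580141 (216.19) the Nanog-sg3 neighbours at 20 and 2 ug and in the transient list lay 560 to 1036 bp away. They scored 621.87 and 331.25 at 20 ug, 276.95 at 2 ug and 160.99 in the transient list, with a 0.2 ug peak (119.91) at 12843 bp.

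In that group the nearest peaks of the lists were not always at 1 place. On chromosome 19 between 44033300 and 44034087 (211.03) the nearest Nanog-sg3 peaks of the second 20 ug library (722.27), the transient list (541.02), the 2 ug list (339.63) and the 0.2 ug list (125.65) overlapped each other 8786 to 9038 bp away on one side, and that of the first library (84.02) lay 8005 bp away on the other. On chromosome 4 between 132583388 and 132584790 (147.87) the nearest peaks at 20 ug (142.80 and 100.42) and in the transient list (127.46) were on one side, and those at 2 ug (72.86) and 0.02 ug (55.30) at separate places on the other. Its neighbourhood was the longest, 71.9 kb with 6 Nanog-sg3 sites and a highest 20 ug score of 494.74. The remaining one by rank, on chromosome 15 at 55116868, had overlapping Nanog-sg3 peaks 3948 to 4367 bp away, with scores of 166.71 and 137.85 at 20 ug, 203.89 in the transient list and 128.11 at 2 ug. The Nanog-sg2 lists had next to no peaks here: 0 of 742 near peaks had one within 20 kb at 20 ug, beside 0.0339% over all, and 1 each at 10 and 40 ug, beside 0.0678% over all at both doses. The transient input listed only 3 peaks, all 276.4 kb or more from every near peak. Within 20 kb of an input peak lay 0 of 742 near peaks, beside 0.0% over all Phc1-sg1 peaks.

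The near peaks fell into 689 neighbourhoods when peaks of either guide were chained at gaps of 20 kb or less. Of these, 616 held 1 Phc1-sg1 peak, 66 held 2 and 7 held 3, and the median length was 15.05 kb with a longest of 71.9 kb. Crowding of Phc1-sg1 peaks among themselves differed little: 12.8% of near peaks (95 of 742, 10.5 to 15.4%) and 11.1% of far peaks (9.82 to 12.5%) had another Phc1-sg1 peak within 20 kb, beside 11.5% over all, with overlapping intervals. Of the 7, the 3 with the highest summed Phc1-sg1 score are described. Each of their Nanog-sg3 20 ug sites was found in 1 of the 2 libraries only.

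**Figure D5:**
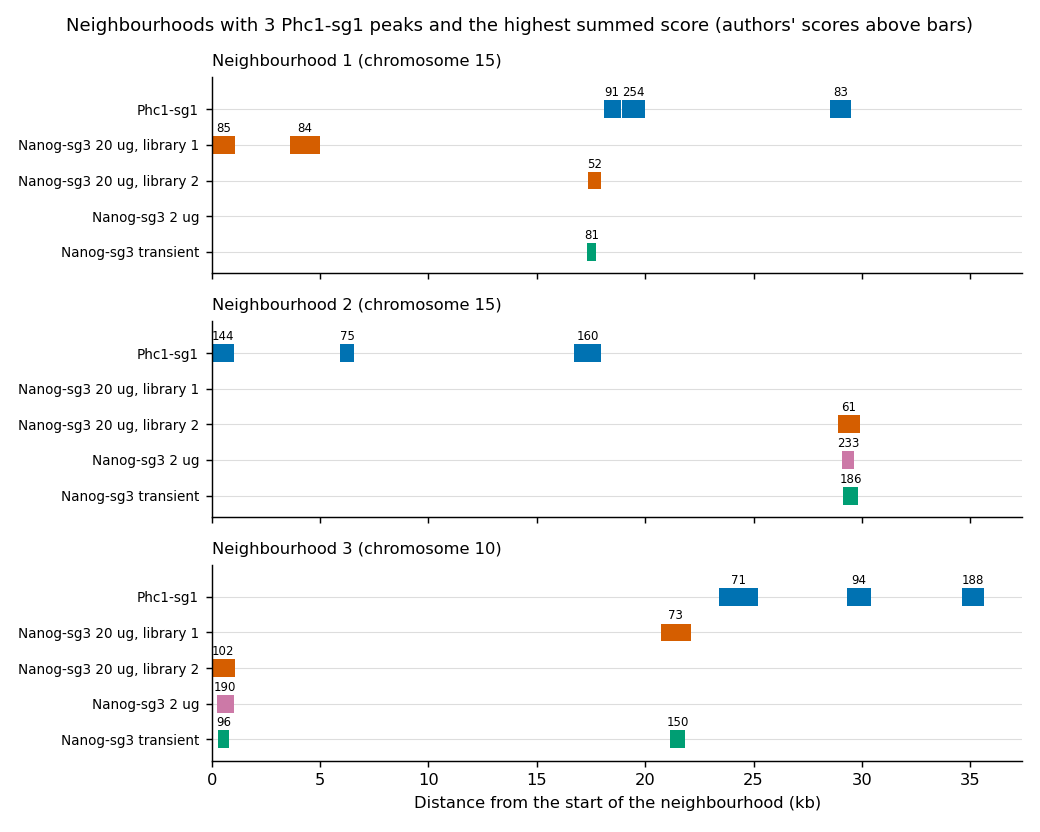
Peaks of 5 lists (rows) in 3 neighbourhoods with 3 Phc1-sg1 peaks each, by distance from the start of each neighbourhood (horizontal axis, kb); bar lengths are peak widths and the numbers above them the authors' scores, rounded. In none of them does a Phc1-sg1 peak overlap a Nanog-sg3 peak.

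In the first, on chromosome 15 between 74503415 and 74532920, Phc1-sg1 peaks of 91.29, 254.10 and 83.22 stood beside Nanog-sg3 peaks of 85.11 and 83.61 in the first library and 51.86 in the second, which lay at different places. In the second, on chromosome 15 between 80090728 and 80120638, Phc1-sg1 peaks of 144.40, 75.03 and 159.69 were chained to 1 Nanog-sg3 site, of 60.77 in the second library, 232.89 at 2 ug and 186.25 in the transient list; only 1 of the 3 Phc1-sg1 peaks was itself within 20 kb of it. In the third, on chromosome 10 between 80779678 and 80815299, Phc1-sg1 peaks of 70.77, 93.97 and 188.29 lay to one side of a site of 72.53 in the first library (149.55 in the transient list), with a site of 101.61 in the second library (189.76 at 2 ug, 95.97 in the transient list) beyond it. No Phc1-sg2 peak was in any of the 3.

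Near peaks were found on every chromosome that had Phc1-sg1 peaks, most often where Nanog-sg3 sites were dense. The share of Phc1-sg1 peaks that were near was highest on chromosomes 11 (55 of 160, 34.4%, 27.1 to 42.3%) and 17 (49 of 147, 33.3%, 25.8 to 41.6%) and lowest on X (5 of 45, 11.1%, 3.71 to 24.1%) and 3 (23 of 125, 18.4%, 12 to 26.3%). Chromosomes 11, 17, 3 and X had 4.94, 3.76, 2.45 and 0.93 Nanog-sg3 sites per Mb. Over the 20 chromosomes the share and the density of sites had a Pearson r of 0.85 and a Spearman rho of 0.68, given as a description, since the rule itself makes the share grow with the density. The intervals of most chromosomes overlap.

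The wider surroundings, from 20 to 500 kb on both sides, were not used by the rule. In this band near peaks had a median of 6 Nanog-sg3 sites (quartiles 3 and 9.75) against 5 (3 and 8) for far peaks, and 12 transient peaks (7 and 20) against 9 (5 and 15). For 2 ug peaks the medians were 2 and 1. The band held a median of 2 Phc1-sg1 peaks for both sets, with means of 2.53 and 2.14, and of 0 Phc1-sg2 peaks for both, with means of 0.43 and 0.38. Each of these 5 lists had a higher mean around near peaks, and the quartile ranges overlap for each of them. Sites of 1 chromosome stretch are counted for several peaks, so these values are descriptions.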

How the data were processed

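HA-dCas9 ChIP-seq peak lists of 12 mouse samples were used, of 16 lists for 18 samples; the 4 human lists were not used. Reads had been mapped with Bowtie to mm9, per the submitters' processing notes, and the peak names begin with MACS; no source used here gives versions, control or filter. The deposited score of each peak is the authors', in an unnamed column. Start positions, read as 0-based, are given 1-based.

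Groups came from the labels. Gaps, overlaps (at least 1 bp) and chained neighbourhoods were computed with numpy 2.4.6 and pandas 2.3.3, exact 95% intervals with scipy 1.17.1, and intervals of medians from order statistics. The gap functions were tested on simulated data, where 200 of 200 planted peaks were returned with the right gap and overlap. No test was run, since all groups but 1 have 1 library. Alternatives were gap limits of 1, 5, 10 and 50 kb, centre distances, a score of at least 100, merging within 500 bp, each Nanog-sg3 library left out, peaks found in both, and stricter overlaps.

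Named positions are the overlapping near peaks, the 5 strongest, the 10 nearest to a Phc1-sg2 peak and 5 with peaks in the most lists. Also named are 3 neighbourhoods, 3 peaks on each side of the limit, and the place of the strongest peak of both Phc1 guides. Chromosome 18 was counted but not named. The near peaks, this rule and the measures were chosen with earlier results of these data known; gap bands, the libraries' subsets, lists without stable sites and the 20 to 500 kb band were chosen after the lists were seen.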

Additional observations from a re-analysis of the deposited data

How the results depend on the processing

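The number of near peaks follows the limit: 63, 223, 404 and 1447 at 1, 5, 10 and 50 kb. It was 264 with a score of at least 100 in every list and 356 with Nanog-sg3 peaks found in both libraries, and 537 to 574 with 1 library left out. The 16 overlaps became 2 with that score, 4 with Nanog-sg3 peaks found in both libraries, 0 with centres within 200 bp, 2 with 50% of both peaks shared, and 6 to 14 with 1 library left out. The limit was also applied to the neighbours' lists. The share of near peaks with a transient neighbour was 65.1, 75.8, 79.7 and 92.5% at 1, 5, 10 and 50 kb, 69.7% with the score minimum, 94.1% with peaks found in both libraries and 87.9 to 88.9% with 1 left out; the 2 ug share was 28.6% at 1 kb, 42% at 50 kb, 53.9% with peaks found in both and 38.7 to 42.5% with 1 left out. In all 10 alternatives both shares stayed above those of the far peaks. Both lists hold the guide of the rule, and far peaks by definition lack a stable 20 ug peak of the set used within the limit. The rule itself thus favours this direction. With only transient and 2 ug peaks that overlapped no stable 20 ug peak, the shares within 20 kb were 31.8 against 26.1% and 5.39 against 4.08%. For Phc1-sg2 the share was 0% at 1 kb (against 0.173% of far peaks), 1.79% at 5 kb (against 0.514%), 1.24% at 10 kb (against 1.06%), 4.84% at 50 kb (against 5.26%) and 1.89% with the score minimum (against 1.38%), all with overlapping intervals, and near peaks were above far ones in 6 of 10 alternatives. The median score was 148.26 with the score minimum and 106.31 with peaks found in both libraries, and above that of far peaks in 4 of 10 alternatives. The median width was 1031 bp at 1 kb, 986 bp at 5 kb and 1004.5 bp with the score minimum, and above that of far peaks in all 10. No paired analysis was possible because the labels carry no replicate numbers that pair samples of different groups and no test was run. Depth is unknown, so what it limits cannot be given.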
